A study of Mus musculus with 12 samples.

Results

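Suppressors of cytokine signalling (SOCS) are feedback inhibitors of the JAK-STAT pathway. The genes described here are Socs1 to Socs7 and Cish, the 8 genes of that family, with the transcription factor Stat3 and the receptor subunit Il6st. They are the 10 of 19938 measured genes that carry one of these symbols in the array's annotation, and 14 probe sets measured them. The family was chosen on the genotype difference of Socs3, 1 of 114 genes that passed the test between K289R and WT livers, so that difference is given as a description and supports nothing. The other 9 were taken by name, with results of these arrays already known.

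Livers came from 6 male mice carrying the LRH-1 K289R knock-in and 6 male WT mice, all on the C57BL/6J background. LRH-1 is a nuclear receptor of the liver, encoded by Nr5a2, and the knock-in replaces a lysine to which the small protein SUMO can be attached. Both groups had been fasted for 24 h and refed for 6 h, and each mouse gave 1 Affymetrix array. The labels name no tissue-restricted construct, so no cell type is singled out by the model, and the labels used here state no age.

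In this pathway a cytokine or hormone binds its receptor, Janus kinases phosphorylate the receptor, and STAT proteins bind there, enter the nucleus and switch on target genes. Several SOCS genes are themselves STAT targets, which closes a feedback loop. Each SOCS protein joins an SH2 domain to a SOCS box that recruits a ubiquitin ligase, which can mark signalling proteins for breakdown. In the liver, interleukin 6 signals through the shared receptor subunit gp130 and STAT3 to induce acute phase proteins and SOCS3. Growth hormone signals through STAT5 and induces CISH and SOCS2.

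STAT dimers bind palindromic sites spelled TTCNNNGAA, which read the same on both strands. RefSeq promoter windows of build GRCm38.p6, 250 bases before to 50 after a gene's start, were available for 6 of the 10 genes, and 2 of those 6 windows held such a site. Over all 32851 windows the share was 8.30%. The Socs3 window had 1 site, 154 to 146 bases before the start. The Cish window had 2 sites, at bases 1 to 9 and 12 to 20, counting the start as base 1. Of all windows, 0.457% held 2 or more sites at any position. The sequences are printed because Socs3 and Cish had the lowest log2 differences between the genotypes among the 10 genes. The difference of Cish did not pass the test, and a link between such sites and the genotype was not tested. Capitals mark the matches, both lines run 5′ to 3′ on the gene's strand, and a match describes letters and not a bound site. The Socs3 stretch is chr11:117969477-117969556 (minus strand) and the Cish stretch chr9:107296654-107296682 (plus strand).
Socs3: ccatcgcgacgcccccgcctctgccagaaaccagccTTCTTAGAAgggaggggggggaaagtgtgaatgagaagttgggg
Cish: cagttTTCCTGGAAagTTCTTGGAAatct
The windows of Socs1, Socs4, Stat3 and Il6st held no such site.

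All values are probe-set intensities on a linear scale, and no detection call was used here. The median intensity of an array was 26.8 to 29.2, and signal below it was not told from background. Each of the 10 genes had a mean log2 level above the median of all genes. Arrays WT 1 and WT 3 stood apart by acute phase transcripts, whose mean log2 level over 25 genes was 10.02 and 10.1 there, against 8.80 to 9.06 on the other WT arrays. The K289R arrays lay between 8.74 and 9.31. Arrays K289R 1 and K289R 3 carried pancreatic acinar transcripts, such as Cpb1, which encodes a digestive carboxypeptidase, at 449 and 892, against at most 10.02 on the other K289R arrays and 10.60 on any WT array. Skeletal muscle markers had a mean log2 level of 5.84 on K289R 3 and 6.74 on WT 1, against at most 5.05 on the other 10 arrays. Markers of hepatocytes, the main cells of the labelled tissue, had a mean log2 level of 12.04 to 12.12 on all 12 arrays. None of 10 marker lists held a gene that passed the test between genotypes. Endothelial markers were positive in 6 of 6, with a mean log2 level of 7.17 to 7.46 on K289R arrays and 6.91 to 7.38 on WT arrays. Differences were positive for 4 of 6 stellate cell, 4 of 4 cholangiocyte, 3 of 6 T and NK cell and 1 of 3 B cell markers. They were positive for 5 of 8 hepatocyte, 7 of 8 Kupffer cell, 7 of 7 acinar and 0 of 8 muscle markers. Neutrophil markers were positive in 6 of 6, but by at most 0.03. All measured T and NK cell, B cell and neutrophil markers had mean levels under the median of all genes.

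Socs3, the inhibitor of gp130 and leptin receptor signalling, was lower in K289R livers on its main probe set. Probe set 10393449 measured 32.8 to 45.0 (median 43.8) in K289R livers, against 50.6 to 72.1 (median 58.4) in WT livers. All 6 K289R arrays thus lay below all 6 WT arrays. The means were 41.4 ± 4.74 in K289R and 59.1 ± 7.77 in WT (SD, n = 6 each). That is a log2 difference of -0.51 (SE 0.097, 95% CI -0.72 to -0.31), or 1.43-fold lower. Among genes that were lower in K289R, Socs3 ranked 11th by p. At the edge of the adjusted p threshold of 0.05, Abca3 lay just inside at 0.0452 and BC048679 just outside at 0.0512.

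The other probe set of Socs3 showed a smaller difference. Probe set 10383010, which the annotation ties to a single GenBank entry, measured 20.3 to 26.2 (median 24.3) in K289R livers and 21.5 to 35.3 (median 27.4) in WT livers. Here the groups overlapped, with 4 WT arrays above the highest K289R array and 1 K289R array below the lowest WT array. The log2 difference was -0.22 (95% CI -0.45 to 0.001). All 6 K289R values lay below the lowest array median, so the probe set was dim. After the genotype means were taken off, its log2 values correlated with those of the main probe set at r = 0.21 over 12 arrays.

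**Figure D1:**
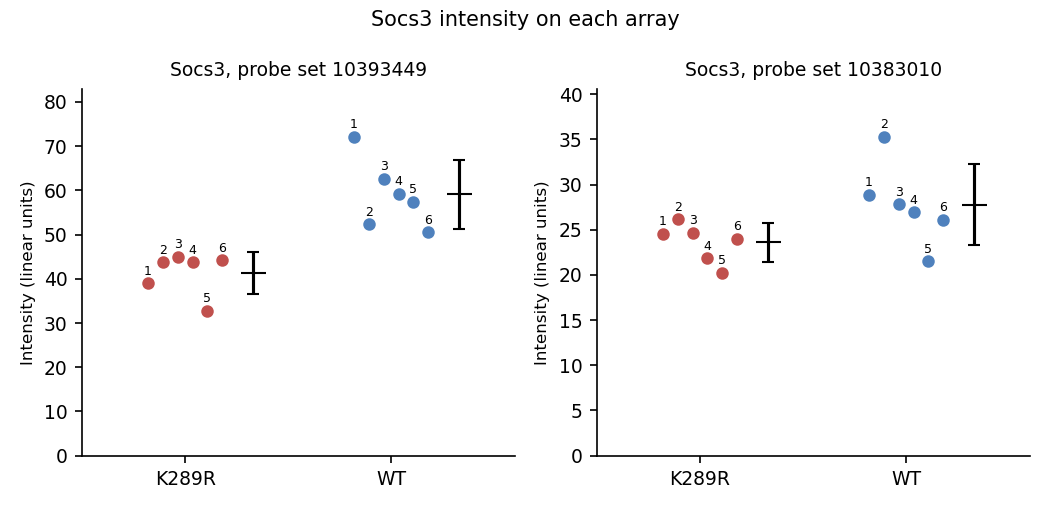
Socs3 intensity in linear units on each array for both probe sets, K289R left and WT right; numbers are replicate numbers, and bars are the mean ± SD of 6 arrays. On probe set 10393449 the K289R arrays reach at most 45.0 and the WT arrays start at 50.6, whereas on probe set 10383010 the groups overlap.

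The WT arrays with high acute phase transcripts were also those with the most Socs3. WT 1 and WT 3 measured 72.1 and 62.7 on the main probe set, the highest of all 12 arrays. The other 4 WT arrays averaged 54.9 ± 4.10 (SD, n = 4), and the 6 K289R arrays averaged 41.4 ± 4.74 (SD, n = 6). Over the 10 arrays other than WT 1 and WT 3, Socs3 and the acute phase mean correlated at r = 0.07 after the genotype means were taken off. On those arrays the acute phase mean ran only from 8.74 to 9.31, against 10.02 and 10.1 on WT 1 and WT 3. This r therefore says nothing about the higher acute phase levels. Without WT 1 and WT 3 the log2 difference of Socs3 was -0.41. The value that chose Socs3 (limma adjusted p = 0.0184) was 0.102 in that setting, 0.0730 without K289R 1 and K289R 3, 0.0531 without WT 3 alone, and 0.0575 when both probe sets were averaged. Kupffer cell markers ran from 6.29 to 7.25 on K289R arrays and from 6.21 to 6.80 on WT arrays (mean log2 level of 8 genes). The part of acute phase, acinar, muscle and Kupffer cell transcripts in the Socs3 values was not tested, and in bulk liver fewer cells of a type and less RNA per cell cannot be told apart.

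Of the 10 genes, Socs3 was the 1 past the threshold, and it was lower in K289R. Over all 19938 genes 0.572% passed, 0.0903% lower and 0.481% higher. None of the other 9 passed, and none had an unadjusted limma p under 0.05. In 8 of the 10 the log2 difference was negative, as in 54.0% of all genes. The median was -0.06, against -0.01 over all genes. That count and that median include Socs3, on whose difference the family was chosen. Without WT 1 and WT 3 the differences of Socs4, Socs5, Stat3 and Il6st turned positive, at 0.04, 0.01, 0.09 and 0.02. Those of Socs2, Socs3, Socs7 and Cish stayed negative. Socs3 was also the 1 gene of the 10 whose groups did not overlap, which held for 1.24% of all genes.

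**Figure D2:**
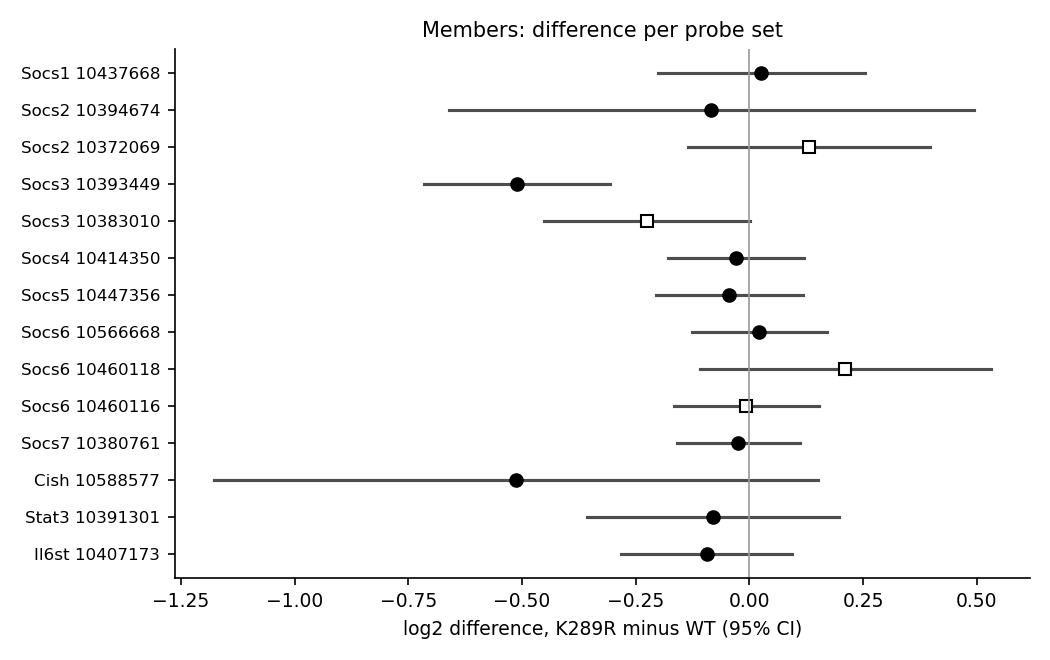
Log2 difference, K289R minus WT, with its 95% CI for each of the 14 probe sets; filled circles are the probe sets that represent a gene, and open squares are further probe sets. The interval of Socs3 probe set 10393449 lies below 0, whereas Cish has a difference of the same size with an interval from -1.18 to 0.15.

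Il6st encodes gp130, the signalling subunit shared by the receptors of interleukin 6, leukaemia inhibitory factor and oncostatin M. It measured 554 to 698 (median 587) in K289R livers and 550 to 765 (median 608) in WT livers, so the groups overlapped. The highest values were 765 on WT 1 and 732 on WT 3, followed by 698 on K289R 5. The log2 difference was -0.09 (95% CI -0.28 to 0.09, limma adjusted p = 0.693).

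Stat3, which carries the gp130 signal to the nucleus, measured 329 to 482 (median 406) in K289R livers and 347 to 634 (median 420.5) in WT livers. The SD was 49.7 in K289R and 108 in WT (n = 6 each), and WT 1 alone reached 634. Without WT 1 and WT 3, the log2 difference of Stat3 turned from -0.08 (95% CI -0.36 to 0.20, limma adjusted p = 0.837) to 0.09. WT 1 was the highest of the 12 arrays for 5 of the 10 genes, Socs3, Socs4, Socs5, Stat3 and Il6st.

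Acute phase genes, the liver output of gp130 and STAT3, had mostly negative differences, but none of the 25 passed the test. Their median log2 difference was -0.28, with 24 of 25 below 0, against a median of -0.01 over all genes. Without WT 1 and WT 3 the median was -0.02. The iron hormone hepcidin (Hamp) averaged 1863 ± 549 in K289R and 2871 ± 332 in WT (SD, n = 6 each, limma adjusted p = 0.0637). Hamp passed with dim genes left out (limma adjusted p = 0.0437), without K289R 1 (0.00663) and without K289R 1 and K289R 3 (0.00365). Lrg1, a secreted acute phase glycoprotein, had a log2 difference of -0.62 (limma adjusted p = 0.184).

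Among 13 regulators that STAT3 can induce, none passed, and the median log2 difference was -0.02. The growth arrest gene Gadd45g averaged 28.8 ± 8.11 in K289R and 47.0 ± 11.2 in WT (SD, n = 6 each, limma adjusted p = 0.0947). On K289R 1, K289R 2 and K289R 5 it measured 24.3, 22.5 and 21.9, below the lowest array median, where signal was not told from background. Gadd45g passed without K289R 6 (limma adjusted p = 0.0263) and without WT 4 (0.0252). The immediate early gene Fos, named after its values were seen, passed without WT 5 (limma adjusted p = 0.0231). Bcl3, a nuclear partner of NF-kappa B, ran from 158 to 192 in K289R and from 185 to 407 in WT, with its highest value on WT 1 (limma adjusted p = 0.186).

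**Figure D3:**
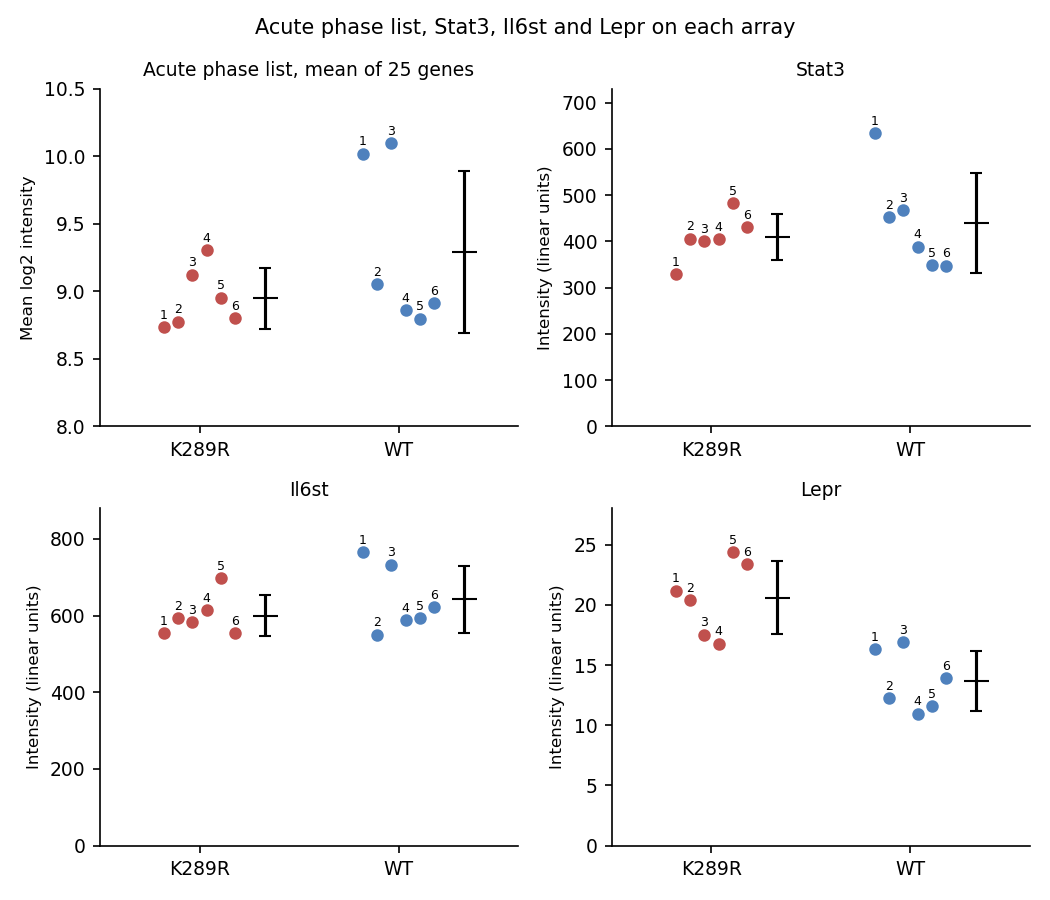
Mean log2 level of the 25 acute phase genes (axis from 8), and linear intensity of Stat3, Il6st and Lepr, on each array, K289R left and WT right; numbers are replicate numbers, and bars are the mean ± SD of 6 arrays. WT 1 and WT 3 lie at 10.02 and 10.1 in the acute phase panel and highest for Il6st, and for Lepr every K289R array but K289R 4 lies above all WT arrays.

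Cish, an inhibitor that binds growth hormone, prolactin and interleukin receptors, varied most among the 10 genes. It measured 34.1 to 87.9 (median 50.02) in K289R livers and 33.9 to 150.5 (median 73.8) in WT livers. The lowest K289R and the lowest WT array were nearly equal, and 3 WT arrays lay above the highest K289R array. The WT values ranged 4.44-fold, and 99.7% of all genes had a smaller SD within the genotypes. The log2 difference of -0.51 was as large as that of Socs3, but its 95% CI ran from -1.18 to 0.15 (limma adjusted p = 0.527). With 1 array left out the Cish difference ran from -0.75 without WT 4 to -0.32 without WT 5, and it was -0.34 without WT 6.

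Socs2, which restrains growth hormone action and body growth in mice, had 2 probe sets whose genotype differences did not share a sign. Probe set 10394674, the brighter, measured 34.4 to 74.9 (median 50.6) in K289R and 33.1 to 117 (median 54.0) in WT. Its log2 difference was -0.08 (95% CI -0.66 to 0.49, limma adjusted p = 0.927). Probe set 10372069 measured 30.3 to 42.1 (median 35.4) in K289R and 26.0 to 41.1 (median 33.1) in WT. Here the log2 difference was 0.13 (95% CI -0.13 to 0.40), of the opposite sign, and the groups overlapped on both probe sets. Their log2 values within genotypes correlated at r = 0.64 over 12 arrays. The annotation gives both the same RefSeq transcripts, so whether either of them reads Socs2 alone was not settled here, and the Socs2 values are uncertain.

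Cish and Socs2 moved together from mouse to mouse on the dimmer Socs2 probe set. After the mean of each genotype was taken off, log2 values of Cish and of probe set 10372069 had Pearson's r = 0.92 and Spearman's rho = 0.92 over 12 arrays (permutation p within genotypes 0.00036 and 0.00033, two-sided). These were 0.0194 and 0.0178 after adjustment over the 54 pairs examined, and this was the 1 pair that passed. For both, K289R 6 was the highest and K289R 4 the lowest of the K289R arrays, and WT 5 and WT 6 were the highest and WT 4 the lowest of the WT arrays. Without WT 4 and WT 6, the arrays farthest from the median of Socs2, r was 0.87. On probe set 10372069 WT 4 measured 26.0, below the lowest array median of 26.8, where signal was not told from background. With the brighter Socs2 probe set r was 0.49 and rho 0.46 (permutation p = 0.173 and 0.190, adjusted 0.470 and 0.524). The 54 pairs were all pairs of the genes on their brightest probe sets, plus probe set 10372069 against each of the other genes. The further probe sets of Socs3 and Socs6 were not among them.

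Other targets of growth hormone and STAT5 were set against Cish in the same way, and against Socs2 on its brighter probe set. The largest positive r was that of Cish with Onecut1, a liver transcription factor induced by growth hormone. Onecut1 measured 438, 447 and 496 on WT 2, WT 5 and WT 6, where Cish was highest among WT arrays. On the other WT arrays it measured 122 to 155. Pearson's r was 0.84 and Spearman's rho 0.88 over 12 arrays (permutation p = 0.00706 and 0.0035), but neither passed after adjustment over 18 relations (0.127 and 0.063). The repressor Bcl6, named after its values were seen, had r = -0.72 and rho = -0.69 with Cish (permutation p = 0.0243 and 0.0403, adjusted 0.219 and 0.242). Without WT 4 and WT 5, the farthest by Cish, r was 0.80 for Onecut1 and -0.64 for Bcl6. Bcl6 measured 328 on K289R 4 and 313 on WT 4, the arrays with the least Cish. With Socs2 in place of Cish, r was 0.52 for Onecut1 and -0.16 for Bcl6, and no relation of Socs2 passed after adjustment.

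Between the genotypes, none of the 9 measured growth hormone targets passed, with a median log2 difference of -0.09. Onecut1 averaged 143 ± 45.9 in K289R and 300.4 ± 177 in WT (SD, n = 6 each, limma adjusted p = 0.311). Egfr, the epidermal growth factor receptor, had a log2 difference of -0.40 (limma adjusted p = 0.380), and Igf1, the liver hormone that growth hormone induces, one of -0.03. Igf1 was named after its values were seen.

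**Figure D4:**
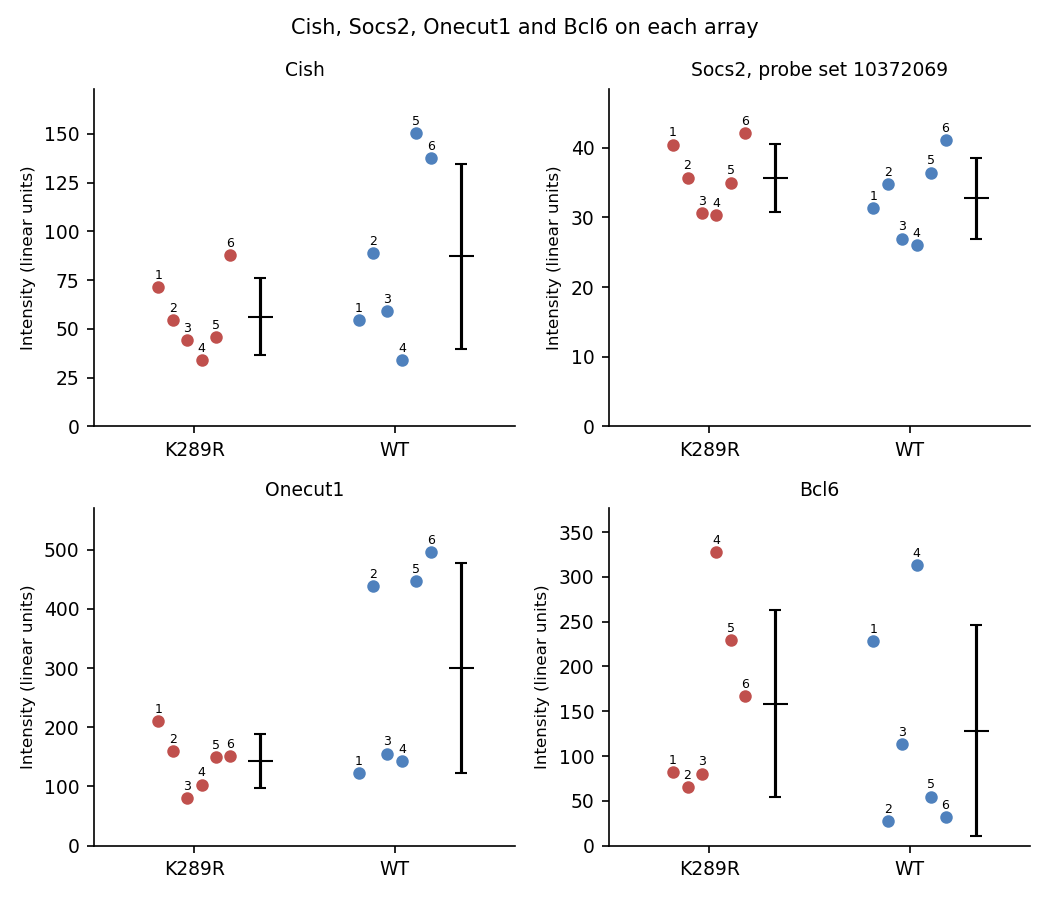
Linear intensity of Cish, of Socs2 on probe set 10372069, of Onecut1 and of Bcl6 on each array, K289R left and WT right; numbers are replicate numbers, and bars are the mean ± SD of 6 arrays. Within each genotype Cish and Socs2 share their highest arrays (K289R 6, WT 5 and WT 6) and their lowest (K289R 4 and WT 4), and Bcl6 is highest on those lowest arrays.

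Socs1, which inhibits Janus kinases directly and restrains interferon signalling, did not separate the genotypes. It measured 39.8 to 64.8 (median 43.6) in K289R livers and 39.5 to 50.8 (median 46.3) in WT livers. A single array, K289R 6, lay above the other 11. The log2 difference was 0.03 (95% CI -0.20 to 0.25, limma adjusted p = 0.942).

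Socs4 and Socs5 act on epidermal growth factor receptor signalling, and neither separated the genotypes. Socs4 measured 70.3 to 84.2 (median 77.4) in K289R and 71.8 to 88.9 (median 78.0) in WT. Socs5 measured 57.4 to 69.6 (median 63.1) in K289R and 55.9 to 74.6 (median 64.6) in WT. Their log2 differences were -0.03 (95% CI -0.18 to 0.12) and -0.04 (95% CI -0.21 to 0.12), and their groups overlapped almost fully.

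Socs7 was the steadiest of the 10, at 46.7 to 56.1 (median 51.8) in K289R and 50.3 to 55.2 (median 52.1) in WT. Its SD within the genotypes, 0.083 on the log2 scale, was smaller than that of most genes: 5.74% of all genes had a smaller one. Its log2 difference was -0.02 (95% CI -0.16 to 0.11, limma adjusted p = 0.903).

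Socs6, which acts on insulin receptor and KIT signalling, had 3 probe sets. The brightest, 10566668, measured 49.5 to 63.9 (median 55.8) in K289R and 51.1 to 58.7 (median 55.2) in WT, a log2 difference of 0.02 (95% CI -0.13 to 0.17). Probe set 10460118 measured 36.5 to 60.6 (median 51.1) in K289R and 32.98 to 56.4 (median 46.2) in WT, a log2 difference of 0.21 (95% CI -0.11 to 0.53). These have the same accessions in the annotation, yet their log2 values within genotypes correlated at r = -0.19 over 12 arrays. Whether either of them reads Socs6 alone was not settled here, so the Socs6 values are uncertain. The last, 10460116, measured 2.94 to 3.79 on all 12 arrays, far below the array medians.

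Around these genes, 12 lists of pathway partners and targets held 131 measured genes, of which 1 passed the test, or 0.763%, near the 0.572% of all genes. That gene was Lepr, the leptin receptor, whose signalling SOCS3 inhibits, and its signal was higher in K289R. Lepr measured 16.8 to 24.4 in K289R livers and 10.95 to 16.9 in WT livers. The groups met at 1 array each, K289R 4 at 16.8 and WT 3 at 16.9. The means were 20.6 ± 3.05 in K289R and 13.7 ± 2.50 in WT (SD, n = 6 each). All 12 values lay below the array medians, where signal was not told from background, so no fold is given. The log2 difference in signal was 0.60 (limma adjusted p = 0.0277), but 0.37 with a pseudocount of 10 (limma adjusted p = 0.0483), and Lepr was not among the genes tested when dim genes were left out. When arrays were left out singly, 7 of 12 limma fits lost the call, and adjusted p ran from 0.0143 to 0.0819. Those 7 left out K289R 1, 2, 5 or 6 or WT 2, 4 or 5, and the log2 difference ran from 0.54 to 0.67 over all 12. The call was also lost without K289R 1 and K289R 3 (limma adjusted p = 0.0702) and with every row tested (limma adjusted p = 0.102).

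The remaining 17 measured JAK-coupled receptors did not pass. Il6ra, named after its values were seen, binds interleukin 6 before it engages gp130. It averaged 287.5 ± 47.1 in K289R and 232 ± 72.2 in WT (SD, n = 6 each, limma adjusted p = 0.411). None of 7 interleukin 6 family ligands passed, and Il6 itself, the ligand for which the family is named, measured 3.20 to 3.98 in K289R and 3.15 to 3.90 in WT, far below the array medians. Il11 and Lif also lay below the array medians on all 12 arrays, and neither was told from background. Among 8 inflammatory cytokine genes, none passed. The chemokine Cxcl1 had a log2 difference of -1.07 (limma adjusted p = 0.277), with at most 61.5 on any K289R array and 362 and 225 on WT 1 and WT 3. The chemokine Ccl2 had one of -0.32 (limma adjusted p = 0.457).

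The kinases, other STATs and other inhibitors differed little. None of 3 Janus kinases passed, and Jak1 and Tyk2 had log2 differences of -0.08 and 0.07. None of the 5 other STATs examined passed, with 0.21 for Stat5b (limma adjusted p = 0.511). Stat4 lay far below the array medians, at 7.76 to 10.75 in K289R and 7.08 to 8.38 in WT, and was not told from background. Of 9 other inhibitors of the pathway, the SUMO ligase Pias4 had -0.09 and the phosphatase Ptpn11 had 0.08, and none passed. None of 4 insulin receptor signalling genes passed, with 0.19 for Insr, and Igf1r lay below the array medians on all 12 arrays.

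The proteins that share or serve the SOCS box did not pass either. Among 6 subunits of the ubiquitin ligases, Rbx1 and Rnf7 had log2 differences of 0.10 and 0.29. Of 24 other SOCS box proteins 18 were below 0, against 54.0% of all genes. Their median was -0.06, or -0.04 without WT 1 and WT 3, and 13 had mean levels under the median of all genes. Asb1 had -0.15 (limma adjusted p = 0.383) and Wsb2 had 0.18 (limma adjusted p = 0.412).

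**Figure D5:**
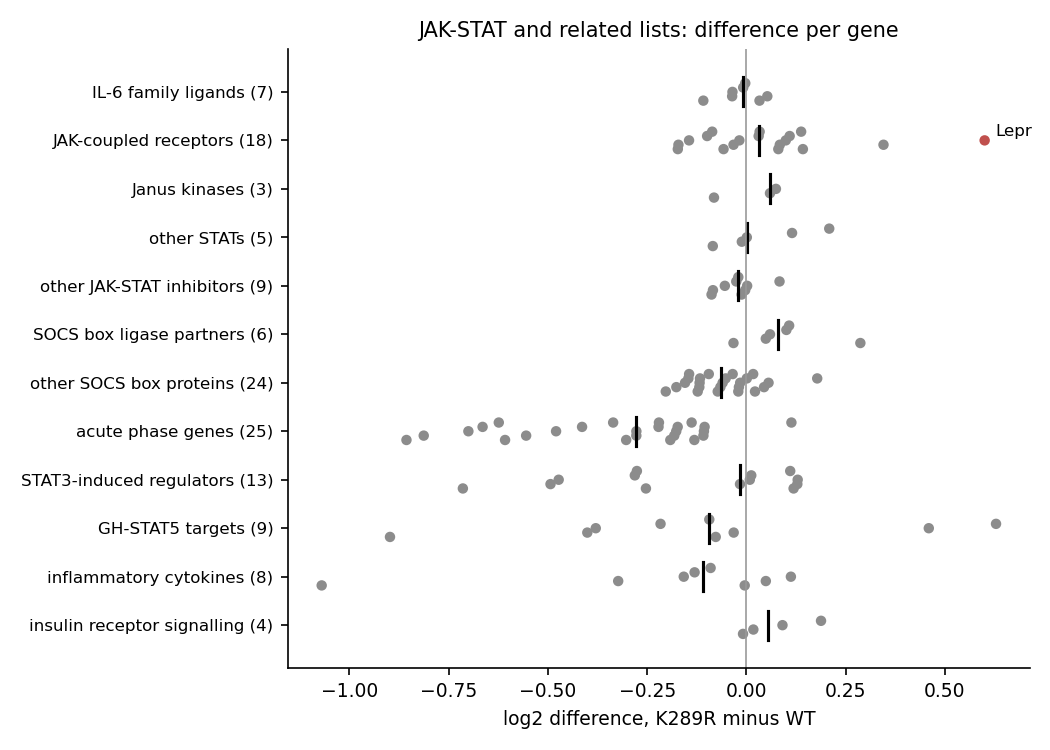
Log2 difference, K289R minus WT, of each measured gene in 12 lists, with the number of genes in brackets; black bars are list medians, and the red point passed the limma test over all genes. Lepr at 0.60 is the 1 gene that passed, and acute phase genes lie mostly below 0 with a median of -0.28.

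The genes whose levels followed Socs3 most closely from mouse to mouse were Ubqln4 and Ripor1, each with r = 0.91 over 12 arrays after the genotype means were taken off. They lead 9563 genes with an established symbol and a mean level of at least the median, so their order is a ranking and no test. Ubqln4 encodes a ubiquilin. Next were the clock repressor Cry1 and Kctd15, with r of 0.85 and 0.84, Spring1 and Zfp217, both with 0.84, and Dlk1 and Coro6, both with 0.83. Without WT 1 and WT 3, the r of these 8 ran from 0.72 for Spring1 to 0.87 for Ubqln4. None of the 8 passed between the genotypes, and their log2 differences ran from -0.30 for Kctd15 to 0.09 for Cry1.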

How the data were processed

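The deposited values are linear intensities, 1 per probe set and array, made with Affymetrix Expression Console per the submitters' processing notes. How the authors summarized and normalized them is not given in the sources used here. Of 35556 rows, 21789 had 1 gene symbol and gave 19938 genes, with symbols updated through RefSeq by gene ID. Not used for genes were 1621 rows that carry more than 1 symbol and 12146 that the annotation does not list or lists without a symbol. Where a gene had more probe sets, the brightest by mean log2 level stood for it. K289R and WT (6 arrays each) were compared on log2 intensities without a pseudocount by limma 3.58.1 in R 4.3.3, two-sided, with Benjamini-Hochberg adjustment over all genes and a threshold of 0.05. Values of further probe sets come from the same model fitted to every row. Correlations used 100000 permutations within genotypes. The number of arrays limits the precision. Figures were drawn with matplotlib 3.10.9.

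The genes described and all lists were chosen with earlier results of these data known. The text names the 10 genes, every Socs3 probe set, the members of a list that passed (otherwise the 2 with the smallest p), the 8 genes most like Socs3, and single markers a result turns on. Exceptions are marked as named after their values were seen. Alternatives changed the scaling (medians made equal, or quantiles), the dim genes (left out), the probe sets (averaged, or each row tested), the variance model, weights for arrays, a block for the replicate number, a pseudocount of 10, and which array was left out. Fits without the arrays that stood apart were chosen after seeing the data. The procedure was tested on simulated data. Hybridization and scan batches could not be examined from the labels. The 12 samples are taken as separate mice from their labels. 1 further pathway list is not reported here.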

Additional observations from a re-analysis of the deposited data

How the results depend on the processing

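Socs3 was lower in K289R under all 24 other settings. Its log2 difference ran from -0.55 to -0.45 when 1 array was left out, from -0.51 to -0.37 under the 9 other planned settings and from -0.52 to -0.41 when 2 or 4 arrays that stood apart were left out. The count of the 10 genes past the threshold was 1, but 0 with probe sets averaged, 0 with every row tested (adjusted p = 0.0705), 0 without WT 1 and WT 3, 0 without K289R 1 and K289R 3, and 0 without all 4 (adjusted p = 0.218). It was 0 to 1 when 1 array was left out, 0 being without WT 3. Over the 131 list genes the count was 1, but 0 with every row tested and 2 without all 4 arrays (Hamp and Lepr), and 0 to 1 with 1 array left out, 0 being without K289R 2, K289R 5 or WT 2. The 1 gene was not always Lepr: it was Hamp with dim genes left out (97 list genes tested), without K289R 1 and without K289R 1 and K289R 3, Gadd45g without K289R 6 or WT 4, and Fos without WT 5. Over all genes it was 114, 75 without K289R 1 and K289R 3, 65 without all 4 and 81 to 159 with 1 array left out. The cause was not tested. None of the other 9 genes passed under any setting.

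With the replicate number as a block the list count was 3 (Gadd45g, Hamp and Lepr) and Socs3 stayed at -0.51 (adjusted p = 0.0444). No pairing of the mice by number was seen, though 6 pairs are too few to exclude it. Of 6 same-numbered pairs 2 had a correlation over 0.1 (range -0.23 to 0.23), and 1 of 6 correlated best with its own number.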
